A study of Mus musculus with 4 samples.

Results

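The class II and class IV histone deacetylases were followed in RNA-seq of TBV2 mouse embryonic stem cells (ESC) kept for 24 h with solvent or with MS-275 at 5 µM. The 7 genes were taken by their symbols from the 28250 genes listed for each library: Hdac4, Hdac5, Hdac7 and Hdac9 of class IIa, Hdac6 and Hdac10 of class IIb, and Hdac11 of class IV. The rule uses no measured value, and all 7 were listed and passed the filter on low values. There were 2 libraries of each group. TBV2 is a feeder-dependent 129/SvP line, and cells of both groups were grown with LIF on gelatin-coated plates. MS-275 (entinostat) is a benzamide inhibitor directed at the class I deacetylases. The sources used here name both DMSO and ethanol for the control cells, so the vehicle is called solvent. Nothing in the labels says that the libraries of a group came from separate cultures, so p-values measure the spread between these libraries, which may be technical.

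Deacetylases remove acetyl groups from lysines of histones and of other proteins. Class IIa enzymes are signal-dependent corepressors: they bind MEF2 transcription factors, recruit the NCoR/SMRT complex with its class I deacetylase Hdac3, and leave the nucleus bound to 14-3-3 proteins once kinases of the CaMK, PKD and SIK families have phosphorylated them. A catalytic tyrosine of the other zinc-dependent classes is a histidine in class IIa, which has little deacetylase activity of its own. Of class IIb, Hdac6 is a cytoplasmic deacetylase of tubulin, cortactin and Hsp90 with a pair of catalytic domains, and Hdac10 deacetylates polyamines. Hdac11, the single class IV enzyme, removes long fatty acyl groups from proteins such as Shmt2.

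The codon for this catalytic residue is printed for each member because it shows the class in the messenger RNA itself. Each line gives coding sequence of the GENCODE M1 transcript, 5′ to 3′, with the codon in capitals and 24 bases on each side.
Hdac4: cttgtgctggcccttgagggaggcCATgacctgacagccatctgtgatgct
Hdac5: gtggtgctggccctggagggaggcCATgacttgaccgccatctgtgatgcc
Hdac7: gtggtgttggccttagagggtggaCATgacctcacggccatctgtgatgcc
Hdac9: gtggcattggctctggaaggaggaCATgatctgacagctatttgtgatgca
Hdac6, first domain: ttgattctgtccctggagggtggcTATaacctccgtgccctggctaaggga
Hdac6, second domain: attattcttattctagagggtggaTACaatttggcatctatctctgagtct
Hdac10: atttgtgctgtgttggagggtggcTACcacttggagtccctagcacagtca
Hdac11: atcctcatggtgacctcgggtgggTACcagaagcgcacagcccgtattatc
Hdac2, class I: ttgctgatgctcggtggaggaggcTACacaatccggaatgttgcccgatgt
Hdac8, class I: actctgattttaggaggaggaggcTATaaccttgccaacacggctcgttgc
The 4 class IIa genes carried the histidine codon CAT. The class IIb and IV genes and the class I genes Hdac2 and Hdac8 carried a tyrosine codon, TAT or TAC. Hdac3 of class I was not examined for this codon. In mm9 coordinates the codon lay at chr1:93842537-93842539 in exon 24 of Hdac4, at chr11:102057913-102057915 in exon 19 of Hdac5, at chr15:97626589-97626591 in exon 26 of Hdac7 and at chr12:34792143-34792145 in exon 23 of Hdac9. In the class IIb and IV genes it lay at chrX:7515610-7515612 and chrX:7509355-7509357 in exons 11 and 20 of Hdac6, at chr15:88956503-88956505 in exon 8 of Hdac10 and at chr6:91123124-91123126 in exon 11 of Hdac11. Exons were numbered 5′ to 3′ over the merged exons of all annotated transcripts of a gene.

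The deposited value of a gene is a normalized expression signal close to a level per exon length. Set against all alignments per kilobase of exon in 9191 genes, its median ratio to them changed from the quartile of shortest genes to that of the longest 0.928-fold to 2.41-fold over the pairings of value table and alignments. Against the alignments of the other replicate of the same group it rose in every pairing, 1.47-fold to 1.75-fold. Levels of different genes are therefore compared on both scales. Hdac6 had the highest value of the 7 genes in every library and Hdac9 the lowest. The order was Hdac6, Hdac5, Hdac4, Hdac11, Hdac7, Hdac10 and Hdac9 in 3 libraries, and in solvent replicate 1 Hdac4 stood above Hdac5. By distinct exon positions per kilobase of exon, for every 1000000 distinct positions of the library (PKM), the order was Hdac6, Hdac4, Hdac5, Hdac11, Hdac10, Hdac7 and Hdac9 in every library, so the places of Hdac4 and Hdac5 and of Hdac7 and Hdac10 depended on the scale. The percentile among all listed genes was 87.8 to 94.9 for Hdac6 and 48.7 to 52.8 for Hdac9. Hdac6 took 39.0% and 37.9% of the summed value of the 7 genes with solvent, and 41.9% and 64.4% with MS-275. The values of the class I genes summed to 1.10 and 1.69 with solvent and 1.08 and 2.71 with MS-275, against 0.670 and 0.649 with solvent and 0.760 and 0.913 with MS-275 for the 7 genes. In PKM the sums were closer. Class I had 44.3 and 48.7 with solvent and 51.8 and 52.3 with MS-275, and the 7 genes 45.2, 46.1, 44.9 and 49.1. Class I was the lower in the alignments deposited with solvent replicate 1. Its sum includes Hdac1, whose exon with the catalytic codon held 0 and 0 positions with solvent and 1 and 0 with MS-275. The Hdac2 exon with that codon, also of 141 bases, held 87 and 95 with solvent and 70 and 93 with MS-275. How well reads can be placed on Hdac1 was not tested.

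**Figure D1:**
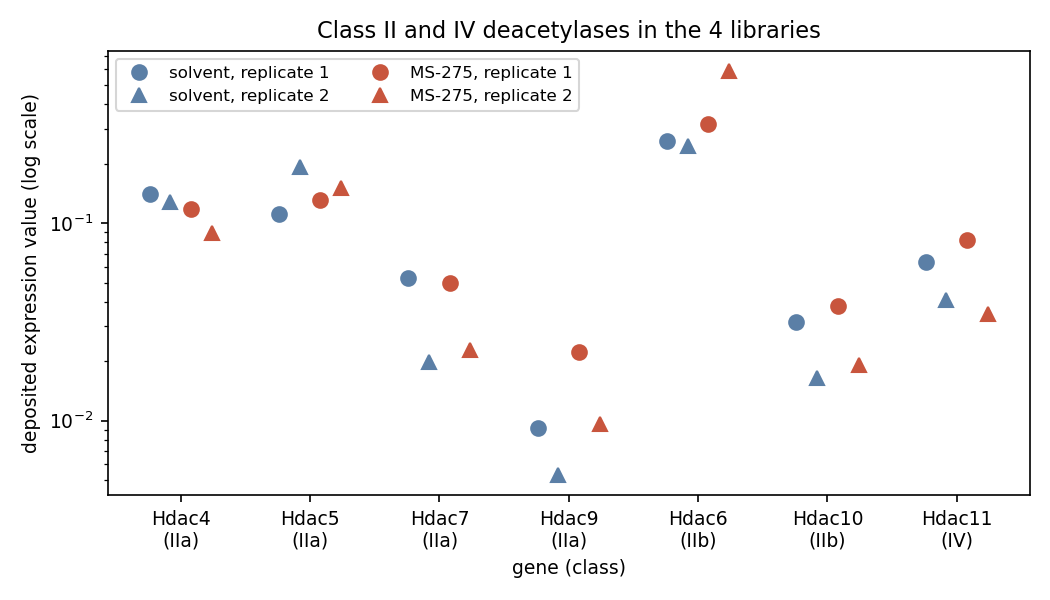
Deposited expression value (log axis) of the 7 genes, by gene and class on the horizontal axis, with 1 point for each library (circles, replicate 1; triangles, replicate 2; blue, solvent; red, MS-275). Both MS-275 points lie above both solvent points for Hdac6 and Hdac9 and below them for Hdac4, and for Hdac7, Hdac10 and Hdac11 the replicate 2 libraries lie below the replicate 1 libraries of either group.

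Libraries of the same replicate number deviated together, and this ran through several members. Hdac7 had values of 0.0527 and 0.0198 in solvent replicates 1 and 2, and of 0.0495 and 0.0229 in MS-275 replicates 1 and 2. Hdac10 and Hdac11 had the same order. The change with MS-275 was therefore read both without and with the replicate number as a block in the limma fit, which was run over all 20336 genes that passed the filter, with Benjamini-Hochberg adjustment over all of them. The alignments deposited for the 4 libraries numbered 9785619 to 23467935, or 9122347 to 10973569 distinct positions. Those deposited with replicate 1 repeat positions (53.2% and 54.4%) and hold no mitochondrial alignment, while those of replicate 2 hold no repeated position and do hold mitochondrial alignments. The mitochondrial genes ND5 and ND6 have values above 0 in the tables of replicate 1 and are listed at 0 in those of replicate 2, so the alignments may belong to the other replicate of the same group. Over 9191 genes the log2 values correlated more with the alignments of the other replicate of the group than with those of their own number. With solvent r was 0.953 and 0.963 against 0.910 and 0.891, and with MS-275 0.942 and 0.951 against 0.870 and 0.842. An exchange within each group would leave the fits to the alignments to all 4 libraries as they are. It would change the replicate number given to a position count or to a library left out.

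Without the block, limma passed 0 of the 7 genes in either direction at an adjusted p of 0.05, and 0 of 7 had an unadjusted p under 0.05, as 14.6% of all genes did for higher and 2.77% for lower. Over all genes this fit called 0.00492% higher and 0.00% lower. With the block, Hdac6 alone passed, 1 of 7 higher and 0 of 7 lower, where the fit called 21.03% of all genes higher and 6.46% lower. By the values alone, 2 of 7 genes had both MS-275 libraries above both solvent libraries (32.3% of all genes) and 1 of 7 had both below (12.02%). The median log2 fold change of the 7 genes was 0.07, beside 0.20 for all genes tested. Scaling the libraries by median ratios moved the median of all genes to 0.13 and quantile normalization to -0.03, and Hdac7, Hdac10 and Hdac11 did not keep their sign under 1 or both of these.

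Hdac9, of class IIa, encodes a repressor of MEF2 targets that is known from muscle and neurons, and a short form of it lacks the deacetylase domain. Its values were 0.00918 and 0.00530 with solvent and 0.0222 and 0.00967 with MS-275. Both MS-275 values lay above both solvent values, although the lower MS-275 value exceeded the higher solvent value by little. The log2 fold change was 0.73 ± 0.553 (moderated SE, n = 2 libraries a group) (limma adjusted p = 0.603 without the block, and 0.0844 with it at an SE of 0.300), so Hdac9 did not pass on the deposited values. Every SE given here is that of the limma or limma-voom fit, which borrows spread from all genes tested. It is not the spread of the gene's own libraries alone. The pairs gave 0.94 and 0.51. The difference was 0.38 with a pseudocount of 0.02 and 0.18 by quantile normalization (adjusted p = 0.701 with the block).

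The alignments gave a second reading of the same libraries. Each distinct position on the exons of GENCODE M1 was counted once and the counts of 16976 genes were tested by limma-voom. Hdac9 had 38 and 32 distinct exon positions with solvent and 67 and 118 with MS-275, or 0.360 and 0.340 against 0.764 and 1.13 PKM. The 2 MS-275 libraries stood apart from the solvent libraries, 2.12-fold and 3.31-fold higher on this scale within the sets of the same number. By limma-voom Hdac9 rose by 1.43 ± 0.357 (SE) on the log2 scale (adjusted p = 0.0299), and with the block by 1.42 ± 0.298 (adjusted p = 0.000288). It was the 1 member of 7 called higher in this reading, where 15.2% of all genes were called without the block and 29.9% with it. Left out in turn, solvent replicate 2 or MS-275 replicate 2 took the adjusted p without the block to 0.109 and 0.102, at log2 fold changes of 1.34 and 1.20.

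The positions on Hdac9 did not cover the whole gene. The annotation holds 3 transcripts of it on the minus strand of chr12:34732451-35213754. The 2 short ones end in exon 12, and the third, here called the 3′ transcript, runs from exon 12 to exon 27 and encodes the deacetylase part. The annotated coding sequence of the 3′ transcript is incomplete at its 5′ end, so whether it also holds earlier exons is not known here. On exons 1 to 11, which hold 1808 bases, the solvent libraries had 8 and 4 distinct positions and the MS-275 libraries 18 and 38. On exon 12, chr12:35056368-35059003, they had 27 and 26 with solvent and 42 and 63 with MS-275. Most of these positions, 24 and 25 with solvent and 37 and 54 with MS-275, fell in the 2327 bases beyond the coding end of the short transcripts, which the 3′ transcript does not contain.

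The 13 exons from 13 to 25, which encode the deacetylase part, held 0 and 0 positions with solvent and 1 and 0 with MS-275. That is 1 of the 255 exon positions of all 4 libraries, or 0.392% (95% exact binomial interval 0.00993 to 2.17%), on 15.0% of the exon length. The solvent libraries had 0 of 70, for which an approximate upper limit, taken as 3 of 70 and not by the exact method, is a share of 4.29%. Exon 23, with the CAT codon printed above, held no position in any library. Every window of 35 bases centred on exons 13 to 25 occurs once in mm9. Exons 26 and 27, the end of the 3′ transcript, held 3 and 2 positions with solvent and 6 and 17 with MS-275. Intervals and limits cover counting error only.

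**Figure D2:**
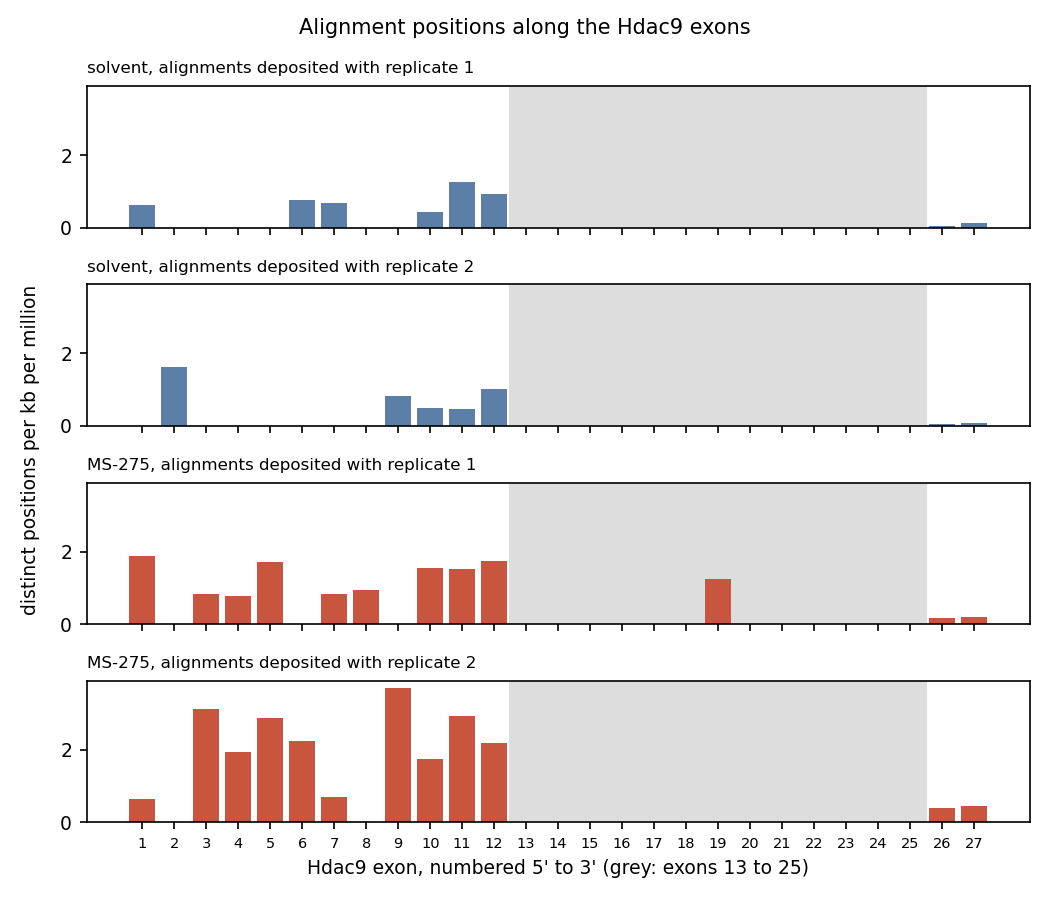
Distinct alignment positions per kilobase of exon for every 1000000 distinct positions (vertical axis) on each Hdac9 exon, numbered 5′ to 3′ (horizontal axis), in the 4 libraries from top to bottom (blue, solvent; red, MS-275). Bars stand on exons 1 to 12 and low on exons 26 and 27, and the grey span, exons 13 to 25, holds 1 position in all 4 libraries.

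In the other class IIa genes positions lay on both sides of the middle of the coding sequence. Of the distinct positions on coding bases, those beyond the midpoint of the longest reading frame made up 48.5% in Hdac4, 56.8% in Hdac5 and 65.9% in Hdac7, over 1044, 1722 and 246 positions in all 4 libraries. The exon with the CAT codon held 10, 10, 5 and 12 positions in Hdac4 in the order solvent 1, solvent 2, MS-275 1, MS-275 2, and 4, 2, 3 and 2 in Hdac7. Exons without a position in any library numbered 1 of 28 in Hdac4 (exon 5), 0 of 20 in Hdac5, 3 of 29 in Hdac7 (exons 1, 3 and 4) and 12 of 27 in Hdac9, all 12 between exons 13 and 25.

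Within the introns of Hdac9 there were 32 and 18 distinct positions with solvent and 192 and 107 with MS-275. Most of the MS-275 positions lay in 1 block of 7 kb between exons 22 and 23, chr12:34816001-34823000, which was chosen after its values were seen. This block held 14 and 3 positions with solvent and 138 and 72 with MS-275. No exon of the annotation lies in it, and 82.9% of its windows of 35 bases occur once in mm9. A second, 1 kb block near the 3′ end, chr12:34734001-34735000, held 0 and 2 with solvent and 6 and 4 with MS-275. Outside both blocks the introns of Hdac9 had 1.64 and 1.33 positions for every 1000000 of the library (PPM) with solvent and 5.26 and 2.84 with MS-275, so both MS-275 libraries were also the higher ones there. No test was run on introns.

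Hdac4, a class IIa repressor of chondrocyte and muscle genes, was the member with lower values after MS-275. It had values of 0.141 and 0.128 with solvent and 0.118 and 0.0885 with MS-275. The groups did not overlap, and the value was lower in both pairs (log2 differences of -0.25 and -0.51). Its log2 fold change of -0.38 ± 0.387 did not pass (limma adjusted p = 0.736, and 0.230 with the block). In distinct exon positions Hdac4 had 11.2 and 10.6 PKM with solvent and 7.88 and 9.07 with MS-275. It fell by 0.34 on the log2 scale there with the block (SE 0.139, adjusted p = 0.0462, where 13.99% of all genes were called lower), and did not pass without it (adjusted p = 0.182), where the fit called 5.12% lower. The introns of Hdac4 held 63.5 and 47.0 PPM with solvent and 44.8 and 40.0 with MS-275, ratios of 0.706 and 0.852 in the sets of the same number, beside 0.704 and 0.855 in the exons. The library was not strand-marked, so these intron counts include any intronic RNA of Gm17418, a noncoding gene on the other strand within Hdac4. Positions on annotated exons of other genes were left out of them.

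Hdac5 and Hdac7, class IIa relatives known from heart and from endothelium and thymus, had no shared direction. Hdac5 had values of 0.111 and 0.193 with solvent and 0.131 and 0.150 with MS-275. Both MS-275 values lay between the solvent values, and it did not pass, at a log2 fold change of -0.06 ± 0.407 (adjusted p = 0.980). Nor did Hdac7, at 0.04 ± 0.679 (adjusted p = 0.990). In distinct positions both MS-275 libraries lay below both solvent libraries for Hdac7, 2.46 and 2.62 against 1.94 and 2.30 PKM, but it did not pass there with the block (log2 fold change -0.24, adjusted p = 0.384).

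Hdac6 was the member that passed on the deposited values. Its values were 0.261 and 0.246 with solvent and 0.319 and 0.588 with MS-275. Both MS-275 values lay above both solvent values, and MS-275 replicate 2 stood far above the other 3 libraries. Without the block the log2 fold change of 0.76 ± 0.452 did not pass (limma adjusted p = 0.461). With the block Hdac6 rose at a moderated SE of 0.258 (adjusted p = 0.0376). The pairs gave 0.28 and 1.24, and the SE, moderated over all genes, is not the spread of these 2 differences alone. With the block and median-ratio scaling the adjusted p was 0.0402 (20.4% of all genes called higher), with quantile normalization 0.00639 (14.4%), and with a pseudocount of 0.001 it was 0.0523.

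The alignments gave Hdac6 a smaller difference. It had 17.7 and 20.2 PKM with solvent and 22.5 and 22.7 with MS-275, on 1133 to 1441 exon positions a library. The groups did not overlap. By limma-voom it was 0.27 ± 0.138 on the log2 scale and did not pass (adjusted p = 0.215, and 0.0701 with the block). The introns of Hdac6 gave ratios of 1.34 and 1.11 in the sets of the same number, beside 1.27 and 1.12 in the exons. Exons 11 and 20, with the TAT and TAC codons of its catalytic domains, had 76, 99, 94 and 121 positions and 61, 57, 54 and 74 positions in the order solvent 1, solvent 2, MS-275 1, MS-275 2, so both domains were covered.

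Hdac10, the polyamine deacetylase, had values of 0.0316 and 0.0165 with solvent and 0.0382 and 0.0192 with MS-275. It was the higher in each pair with MS-275, by 0.24 and 0.17 on the log2 scale, but the groups overlapped. Its log2 fold change of 0.20 ± 0.659 equalled the median of all genes to 2 decimals (adjusted p = 0.945). Its distinct positions gave the other sign, 2.56 and 2.87 PKM with solvent and 2.01 and 2.46 with MS-275, and did not pass with the block (log2 fold change -0.26, adjusted p = 0.413).

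Hdac11 had values of 0.0635 and 0.0406 with solvent and 0.0821 and 0.0345 with MS-275. The MS-275 libraries were the highest and the lowest of the 4, and it did not pass, at 0.07 ± 0.580 on the log2 scale (adjusted p = 0.984). Exon 11, the last exon of Hdac11, held 129 and 122 of its 195 and 163 positions with solvent and 105 and 177 of 141 and 229 with MS-275. Its distinct positions gave 0.06 on the log2 scale with the block (adjusted p = 0.838).

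In distinct positions 2 of 7 genes, Hdac6 and Hdac9, had both MS-275 libraries above both solvent libraries, where 38.3% of all genes did. Hdac4, Hdac7 and Hdac10, 3 of 7, had both below, where 21.6% of all genes did. Hdac6, Hdac9 and Hdac4 thus lay on the same side in both readings, which come from the same libraries and are not independent.

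**Figure D3:**
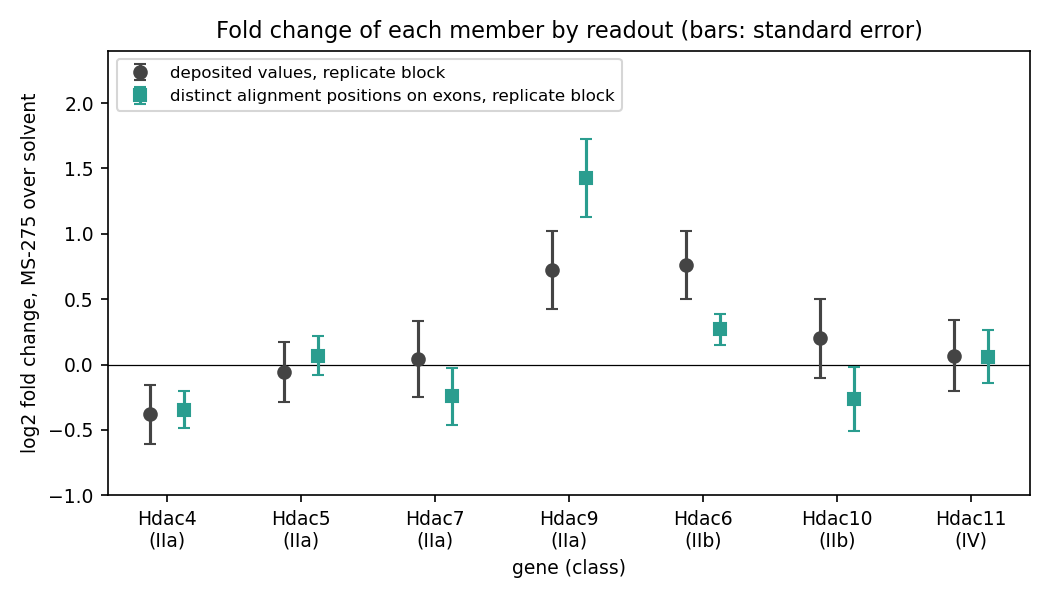
Log2 fold change of MS-275 over solvent (vertical axis) for each gene and class (horizontal axis), on the deposited values (circles) and on distinct alignment positions (squares), both with the replicate block. Bars are standard errors of these fits, moderated over all genes, with 2 libraries a group. Hdac9 stands at 0.73 and 1.42, Hdac6 at 0.76 and 0.27 and Hdac4 at -0.38 and -0.34, while the other 4 genes lie between -0.26 and 0.20 in both.

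Promoter windows of RefSeq (GRCm38.p6), 250 bases before to 50 after a start, were given for 6 of the 7 genes in 10 windows, of which 4 are of Hdac7 and 2 of Hdac9. The 250 bases before the start are printed for the members whose readings differed between the groups and for Hdac5, with GGGCGG and CCAAT on either strand and the MEF2 consensus in capitals. They lie on the minus strand at chr1:92180342-92180591 for Hdac4, chr11:102230173-102230422 for Hdac5, chrX:7947890-7948139 for Hdac6 and chr12:34528890-34529139 for Hdac9. In mm9 the whole Hdac4 window lies at chr1:94076869-94077168, upstream of the 5′ end of the GENCODE M1 gene at chr1:94044970. It therefore belongs to a start outside the exons counted here.
Hdac4: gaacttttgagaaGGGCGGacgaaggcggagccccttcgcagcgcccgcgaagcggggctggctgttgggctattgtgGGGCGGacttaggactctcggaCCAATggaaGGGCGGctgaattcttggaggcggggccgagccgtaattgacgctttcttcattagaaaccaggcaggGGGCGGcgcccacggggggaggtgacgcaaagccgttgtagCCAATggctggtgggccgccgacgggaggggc
Hdac5: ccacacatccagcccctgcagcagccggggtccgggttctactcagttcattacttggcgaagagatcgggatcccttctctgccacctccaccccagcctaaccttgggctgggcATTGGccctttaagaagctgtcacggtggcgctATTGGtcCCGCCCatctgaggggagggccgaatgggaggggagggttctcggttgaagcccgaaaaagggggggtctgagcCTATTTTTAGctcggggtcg
Hdac6: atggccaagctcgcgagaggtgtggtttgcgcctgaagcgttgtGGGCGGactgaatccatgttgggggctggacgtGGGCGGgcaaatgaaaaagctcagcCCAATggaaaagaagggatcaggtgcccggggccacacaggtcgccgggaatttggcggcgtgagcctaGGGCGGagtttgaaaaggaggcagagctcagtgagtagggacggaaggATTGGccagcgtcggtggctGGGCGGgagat
Hdac9: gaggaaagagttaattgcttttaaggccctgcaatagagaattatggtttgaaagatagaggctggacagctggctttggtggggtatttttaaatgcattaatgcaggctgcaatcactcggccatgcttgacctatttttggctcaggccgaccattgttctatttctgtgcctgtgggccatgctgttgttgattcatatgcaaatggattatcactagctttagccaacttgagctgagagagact
The Hdac9 window has none of these letters and no capitals. It lies at the 5′ end of the longer of the short transcripts: the whole window of 300 bases occurs once in mm9, at chr12:35213705-35214004. It holds 3 CG dinucleotides, and the second Hdac9 window, farther upstream, holds 0, beside a median of 7 over 32851 windows. The windows of Hdac4, Hdac5, Hdac6 and Hdac11 hold 32, 18, 20 and 22. GGGCGG was found 5 times each in Hdac4 and Hdac6, 1 time each in Hdac5 and Hdac11 and in 1 of the 4 windows of Hdac7, and occurs in 35.7% of all windows. CCAAT was found in Hdac4, Hdac5, Hdac6 and Hdac11 and occurs in 37.4%. The MEF2 consensus, sought after the sequences were seen, was found in 1 of the 10 windows, that of Hdac5, and occurs in 3.19%. CACGTG was found in 1 window, also that of Hdac5, and occurs in 7.15%. A match is a description of letters and not of binding.

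The genes that work with these enzymes were read in the same fit, by lists. Without the block 0 genes of any list passed. With it, of the 5 NCoR/SMRT genes, the corepressor that class IIa enzymes recruit, 2 fell and 0 rose, at a list median of -0.47. Counts over all genes in this fit are those given above, 21.03% higher and 6.46% lower. On distinct positions with the block (29.9% and 13.99% of all genes), 3 fell and 1 rose. Tbl1xr1, a subunit that exchanges corepressor for coactivator, fell by 1.27 on the log2 scale (adjusted p = 0.000649 with the block), and Ncor1, the scaffold that binds Hdac3, fell by 0.82 (adjusted p = 0.0209). Values of Tbl1xr1 were 0.245 and 0.278 with solvent and 0.115 and 0.0961 with MS-275, and those of Ncor1 were 0.409 and 0.286 against 0.310 and 0.117.

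Of the 4 MEF2 factors, the DNA-binding partners of class IIa, 1 rose and 0 fell with the block, at a median of 0.17. Mef2c was near 0 with solvent, 0.00049 and 0.00062, and had 0.00875 and 0.00692 with MS-275 (log2 fold change 1.20 on the scale with a pseudocount of 0.005, adjusted p = 0.00154 with the block). Of the 16 kinases of class IIa, 0 rose and 1 fell, Camk2b, with values of 0.149 and 0.119 against 0.0970 and 0.0704 (log2 fold change -0.66, adjusted p = 0.0404). On distinct positions with the block 4 of 15 kinases were higher and 2 lower, where 29.9% and 13.99% of all genes were called, so both counts were near those shares. Camk2a (0.80, limma-voom adjusted p = 0.00280), Prkd1 (0.99, 0.00988), Prkd2 (0.58, 0.0406) and Sik2 (0.60, 0.0154) were the 4 higher ones. Camk2b (-0.86, 6.39e-05) and Camk1d (-0.61, 0.00052) were the 2 lower ones. None of the 7 genes for 14-3-3 proteins passed (median -0.04), although Ywhah did as lower with the block and median-ratio scaling (adjusted p = 0.0410) and on distinct positions with the block (log2 fold change -0.45, adjusted p = 0.0345). On the deposited values neither Ankra2 nor Rfxank, the ankyrin-repeat proteins that bind class IIa, passed (median -0.28).

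Of the 11 listed substrates and partners of Hdac6, 3 rose with the block and 0 fell, at a median of 0.20, the same as that of all genes. Sirt2, the other tubulin deacetylase, had 0.114 and 0.0794 with solvent and 0.214 and 0.150 with MS-275 (log2 fold change 0.88, adjusted p = 0.00746). Tuba1a, an alpha-tubulin, had 0.132 and 0.998 with solvent and 0.158 and 7.66 with MS-275, a log2 fold change of 1.59 (adjusted p = 0.0117). Its pairs gave 0.25 and 2.93, and near-identical tubulin genes may share its reads. On distinct positions with the block 2 of 11 rose and 0 fell, where 29.9% of all genes were called higher and 13.99% lower. Of the 10 polyamine genes 1 rose and 1 fell at a median of 0.10. Sms, spermine synthase, fell by 0.70 on the log2 scale (adjusted p = 0.0346), and Oaz2-ps, under which the entry for the antizyme Oaz2 is listed, rose by 1.27 (adjusted p = 0.00425), with its second symbol naming a pseudogene that may share reads. With median-ratio scaling 3 of the polyamine genes fell with the block, where 1804 of all 20319 genes tested were called lower. On distinct positions with the block 2 of 9 fell and 0 rose, where 13.99% of all genes were called lower and 29.9% higher. Shmt2, the substrate of Hdac11, had 0.538 and 0.588 against 0.393 and 0.407 and did not pass (log2 fold change -0.49, adjusted p = 0.154 with the block), but fell by 0.38 on the log2 scale on distinct positions with the block (adjusted p = 0.0163).

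Of the 4 genes of class I, the class that MS-275 is directed at, 1 rose with the block and 0 fell, at a median of 0.29. Hdac1 had 0.0311 and 0.165 with solvent and 0.0423 and 0.360 with MS-275 (log2 fold change 0.75, adjusted p = 0.0343 with the block and 0.803 without it). On these values the replicate number moved Hdac1 more than MS-275 did. In distinct positions Hdac1 had 4.18 and 2.70 PKM with solvent and 7.54 and 4.41 with MS-275. It rose there by 0.81 on the log2 scale with the block (limma-voom adjusted p = 0.00206, where 29.9% of all genes were called higher). Without the block it did not pass there (adjusted p = 0.213). Hdac2, Hdac3 and Hdac8 passed in neither reading, with log2 fold changes of 0.32, 0.26 and -0.22 on the deposited values.

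Markers of the cells moved with MS-275 in the same libraries. Of 12 ESC markers 5 fell with the block and 0 rose, and their summed value was 7.24 and 26.0 with solvent and 5.71 and 15.2 with MS-275. Of 16 fibroblast markers, which the feeder layer would carry, 8 rose and 0 fell, and the sum went from 0.614 and 0.750 to 1.10 and 1.26. Striated muscle markers rose in 6 of 9 genes and fell in 0, from sums of 0.212 and 0.0941 to 0.495 and 0.407, with Myod1 listed at 0 in both solvent libraries. Neuron markers rose in 3 of 8 tested and fell in 0, but their sum was 1.34 and 2.39 with solvent and 1.27 and 1.99 with MS-275. With solvent most of it was Stmn2, at 0.856 and 1.99, against 0.600 and 1.45 with MS-275. Mtap2 was listed at 0 with solvent, yet on distinct positions with the block it rose by 1.40 on the log2 scale (limma-voom adjusted p = 3.23e-09). Its listed 0 therefore need not mean absence. Endothelial markers on the deposited values rose in 3 of 7 and fell in 1, with Emcn at 0 in every library. Their sum went from 0.601 and 0.606 to 0.470 and 0.144. Most of it was Pecam1, the 1 that fell, from 0.529 and 0.567 with solvent to 0.331 and 0.0962 with MS-275. All genes were called higher in 21.03% and lower in 6.46% in the fit to the deposited values with the block. In the fit to distinct positions with the block these shares were 29.9% and 13.99%. On distinct positions with the block 6 of 12 ESC markers fell, 9 of 16 fibroblast, 4 of 5 muscle, 5 of 9 neuron and 4 of 7 endothelial markers rose, and 1 fibroblast, 1 neuron (Stmn2, adjusted p = 0.00405) and 2 endothelial markers fell. The part of these markers in the readings of Hdac9, Hdac6 and Hdac4 was not tested. In bulk RNA, a change in the number of cells of a type and a change in RNA per cell cannot be told apart.

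For each member 1 gene with the most similar profile over the 4 libraries was named, by the smallest distance between centred log2 profiles among genes with a mean value between 0.5 and 2 times its own. These were Med22 for Hdac4, Gm2223 for Hdac5, Apip for Hdac6, Atp6v0e2 for Hdac7, Shank2 for Hdac9, Zscan30 for Hdac10 and Crat for Hdac11, at distances of 0.0132 to 0.0992. Apip had 0.206 and 0.190 with solvent and 0.235 and 0.435 with MS-275, and Shank2 had 0.00798 and 0.00375 against 0.0188 and 0.00777. Profiles within 0.25 were shared by 13 genes for Hdac5 and by 204 for Hdac4, so 4 libraries set few genes apart.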

How the data were processed

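RNA was poly(A)-selected, fragmented and primed with random hexamers. The authors mapped the reads to mm9 and deposited, for each library, a normalized expression signal per gene made with Genomatix, and the alignments as positions of 35 bases. The aligner, its version and the handling of repeated reads are not given in the sources used here. A shorter table of each library, filtered by a p-value, was not used.

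Libraries were grouped by their titles, and a title ending in Duplicate was taken as replicate 2. The signal was tested as log2(value + 0.005) with limma 3.58.1 (R 4.3.3, lmFit and eBayes with a trend) over the 20336 genes that reached 0.001 in 2 or more of the 4 libraries. P-values were adjusted by Benjamini-Hochberg over all genes tested, and fold changes of low genes are understated on this scale. The depth behind a deposited signal is unknown. The replicate number was taken to pair the libraries, because the deposited alignment names mark replicates 1 and 2 of both groups in the same way, and deviations from the group means correlated over genes (r = 0.764). The fit without the block is the main one.

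Alignments were placed by their middle base on merged GENCODE M1 exons of mm9, leaving out bases in exons of more than 1 gene, and distinct positions (position and strand) were tested with limma-voom for genes holding 10 or more in 2 libraries. How the signal follows exon length was checked against alignments counted on the same exons. Python 3.11.15 was used for counting, sequences and figures.

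The genes named were the 7 members, the 4 class I genes, of each partner list up to 2 that rose and 2 that fell most among those that passed with the block in the direction of both pairs, and the gene most like each member. Some further genes of the partner and marker lists were named outside this rule. The rule for members uses symbols alone, but members, lists and tests were chosen with earlier results of these data known. Protein sequence was not analysed here. Alternatives were the pseudocount, filter, scaling, block, readout and leaving out each library.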

Additional observations from a re-analysis of the deposited data

How the results depend on the processing

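The number of members called higher was 0 of 7 without the replicate block under every pseudocount, filter, scaling and trend setting tried on the deposited values, and 0 when any library was left out. With the replicate block it was 1, where 21.03% of all genes were called higher. It was also 1 with the block and median-ratio scaling (20.4% of all genes), quantile normalization (14.4%) or a pseudocount of 0.02 (3790 of 20336 genes). It was 0 with the block and a pseudocount of 0.001 (4216 of 20336 genes). The filter on a mean value of at least 0.01, without the block, called 466 of 14740 genes higher. On distinct positions the number of members was 1 without and with the block (15.2% and 29.9% of all genes). It was 1 on all alignments with the block (4502 of 17293 genes). Left out in turn on distinct positions, the libraries gave 0 to 1. The number called lower was 0 except on distinct positions with the block, where it was 1 (13.99% of all genes called lower). The gene called with the block was Hdac6 on the deposited values and Hdac9 on the alignments, and the cause of that difference was not tested. The fits to all alignments, the pseudocounts with the block and the libraries left out on positions were chosen after seeing the data. The sign changed for Hdac7 (-0.033 by median-ratio scaling, -0.33 by quantile normalization, -0.24 on distinct positions and on all alignments with the block), Hdac10 (-0.25 by quantile normalization, -0.26 on distinct positions, -0.10 on all alignments with the block), Hdac11 (-0.018 by median-ratio scaling, -0.19 by quantile normalization) and Hdac5 (0.065 on distinct positions, 0.068 there with the block, 0.064 on all alignments with the block). The scaled values of Hdac7, Hdac10 and Hdac11 and the distinct positions of Hdac7 and Hdac10 gave these values both without and with the block. With each library left out in turn, on the deposited values and on distinct positions together, the log2 fold change ran from -0.58 to -0.18 for Hdac4, -0.44 to 0.33 for Hdac5, 0.21 to 1.20 for Hdac6, -0.56 to 0.65 for Hdac7, 0.28 to 1.62 for Hdac9, -0.35 to 0.62 for Hdac10 and -0.50 to 0.64 for Hdac11, the lone library of a group being assumed to vary like the others. With 38 and 32 exon positions in the solvent libraries, Hdac9 is the member with the fewest counts.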
